A study of Mus musculus with 8 samples.

Results

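The subject is the binding of the transcription factor SOX9, as read by CUT&Tag, at 10 genes known as its targets in cartilage: Col2a1, Col9a1, Col9a2, Col9a3, Col11a1, Col11a2, Comp, Matn1, Matn3 and Hapln1. They were named for that role from general knowledge, to ask whether SOX9 coverage in spinal cord also lies at genes of another tissue. They are 10 of the 21938 coding genes of the mouse annotation. No measured value entered the choice of a gene, although earlier results of these data were known when it was made.

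SOX9 drives cartilage formation, where it works with SOX5 and SOX6 at enhancers of genes for collagens and other proteins of the cartilage matrix. SOX proteins recognise a short AT-rich core through their HMG domain, and in chondrocytes SOX9 often sits on a pair of cores that face each other. In the adult central nervous system SOX9 marks astrocytes and ependymal cells, which make little of the cartilage matrix.

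The study examined gene regulation after spinal cord injury in adult C57BL/6 mice. CUT&Tag uses an antibody to direct a transposase that cuts and tags DNA near a bound protein. It was run on sorted nuclei from a 5-mm segment of cord, with 150000 nuclei per sample. For the sort the paper refers to its single-nucleus protocol, which stained with antibodies to NEUN or SOX10 and with the DNA dye 7-AAD. Its CUT&Tag methods do not name the gate used. The injured group received a mid-thoracic contusion and was sampled 1 day post injury (1 d.p.i.), the other group was uninjured, and each held 1 male and 1 female sample of wild-type animals. From each sample 20% of the nuclei went to a control with the secondary antibody only, which gave 4 SOX9 libraries and 4 control libraries. Male and female samples came from different animals, so that each group had 2 biological samples and sex letters do not pair animals across groups.

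The deposited list gave the coverage of each library in 20283253 stretches of the mm10 genome, as a whole number of fragments over each stretch. The SOX9 libraries held 1891276 (uninjured male), 7216730 (uninjured female), 2529356 (injured male) and 2385009 (injured female) fragments. The control libraries held 22752, 46846, 52950 and 10906 fragments in the same order, and the ratio of the shallowest SOX9 library to the deepest control was 35.7. Values below are coverage per base divided by the mean coverage of the same library, so that 1 stands for the library mean. Intervals are exact 95% Poisson intervals from the fragments in a window, and they and the limits at 0 fragments cover counting error only.

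Several libraries stood apart before any gene was read. The coverage of chromosome Y over that of the autosomes was 0.310 and 0.173 in the male SOX9 libraries and 0.0269 and 0.0392 in the female ones, which fits their labels. The ratio for chromosome X did not separate them by sex. It was 0.347 and 0.283 in the male SOX9 libraries and 0.276 and 0.386 in the female ones. The chromosome Y ratio was 0.0553 and 0.0735 in the male controls and 0.0600 and 0.0354 in the female controls, so the controls did not separate by sex. Both ends of an isolated control fragment were also those of some SOX9 fragment for 93.5% of such fragments in the uninjured male, 82.3% in the uninjured female, 86.0% in the injured male and 91.4% in the injured female. In the 10 loci this held for 41 of 51 isolated control fragments, and for 0 of them after a shift of 1000 bp. The controls are therefore not independent of the SOX9 libraries, and the pooled ratio of SOX9 to control is also given without the shared fragments; the other values from the controls include them.

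At transcription start sites (1 kb to each side), the median of the 10 genes over the 4 SOX9 libraries was 4.13 times the library mean, against 3.71 for all coding genes, and 6 of 10 lay above that coding median. In gene bodies the median was 2.51 against 1.52, again with 6 of 10 above. The flanks of 20 kb on each side had a median of 1.65 against 1.45, with 5 of 10 above, and without Col11a2, an alternative chosen after its values were seen, the median of 1.44 lay just below the coding value. Over the whole locus (body and flanks) the median was 1.895 against 1.48, with 6 of 10 above. Coverage of at least 2 was reached by 7 of 10 start sites, against 62.7% of those of coding genes, and by 4 of 10 loci, against 38.2%, so that both counts were near the background. The order of these medians at start sites was not stable: with 500 bp to each side the median was 3.93 against 4.53, and without the injured female it was 3.71 against 3.80. The coding median itself differed between libraries, at 2.77 and 4.64 in the uninjured male and female and 3.58 and 3.24 in the injured male and female. The median of the 10 genes was 2.51 and 3.30 in the uninjured male and female, below the coding median in both, and 4.66 and 4.04 in the injured male and female, above it in both. The median over the 4 libraries thus averages opposite orders in the 2 groups, and this difference between groups was not tested.

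**Figure D1:**
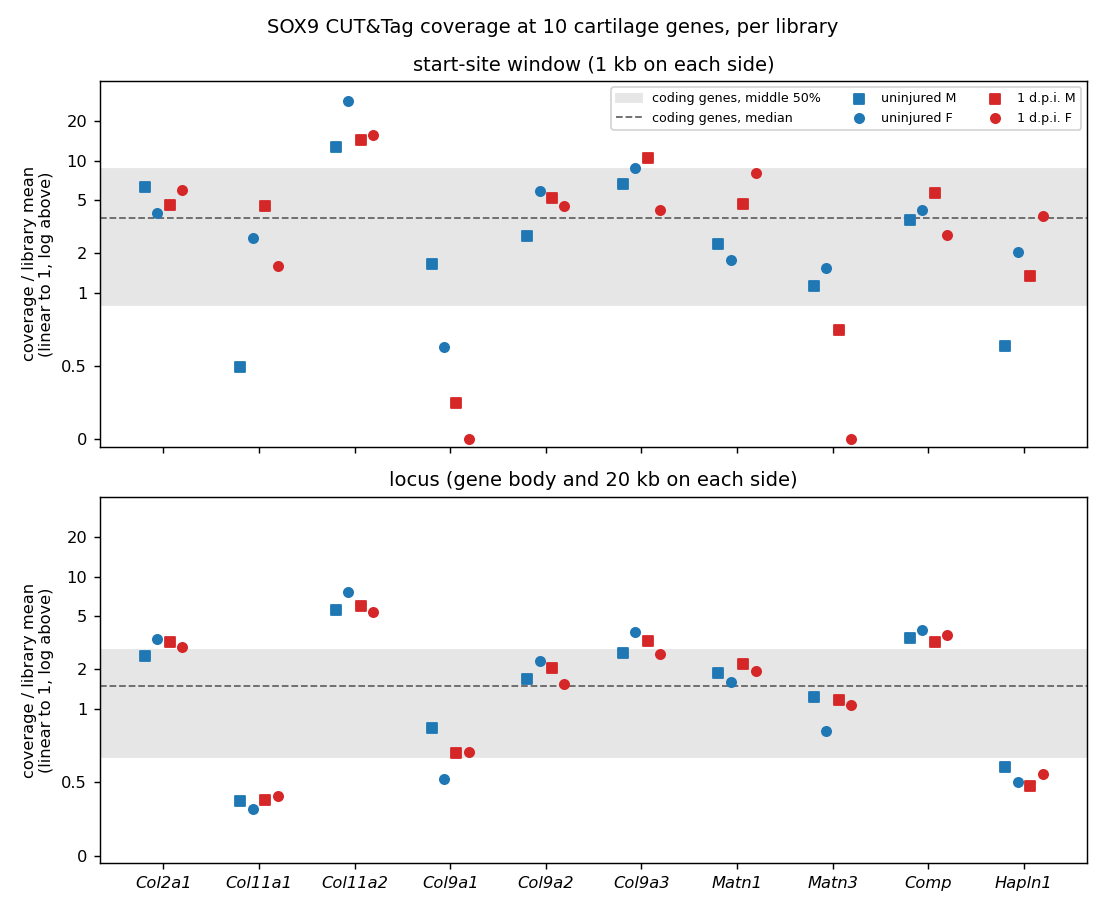
Coverage over the library mean in the start-site window and in the locus of each of the 10 genes, with 1 point for each of the 4 SOX9 libraries, on an axis that is linear up to 1 and logarithmic above. The grey band spans the quartiles of all coding genes and the dashed line is their median; Col11a2 lies above the band in both windows, and Col11a1, Col9a1 and Hapln1 have loci under 1 in every library.

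Col2a1 encodes the chain of collagen II, the main fibrillar collagen of cartilage, and its first intron carries the best-known SOX9 enhancer. Its start-site coverage was 6.29 and 4.02 in the uninjured male and female and 4.63 and 6.03 in the injured male and female. The groups overlapped, and the mean of 5.24 lay at percentile 59.1 of coding genes. The counting intervals were wide, from 3.02 to 11.6 in the uninjured male on 10 fragments. The locus held 2.52, 3.37, 3.21 and 2.92 in the same order, again with overlap, and its mean of 3.01 lay at percentile 77.6. Within the locus, exons (4.26) and introns (3.46) had higher means than the upstream (2.67) and downstream (2.32) flanks.

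Col11a2 encodes the α2 chain of collagen XI, which helps to set the diameter of collagen II fibrils. Its start-site coverage was 12.6 and 28.2 in the uninjured male and female and 14.4 and 15.6 in the injured male and female. The uninjured female was highest and the uninjured male lowest, so that the groups overlapped, and the mean of 17.7 lay at percentile 92.8, the highest of the 10 genes. The locus held 5.61, 7.59, 5.95 and 5.37, also with overlap, and its mean of 6.13 lay at percentile 95.5. This locus is crowded: 10 starts of other genes lie in it, 4 of them of coding genes. The upstream flank, where the 4 coding starts lie, had a mean of 12.3, and the downstream flank had 2.41. Without the bases within 1 kb of starts of other genes, the locus of Col11a2 had a mean of 4.92.

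Col11a1 encodes the α1 chain of the same collagen XI. Its start-site coverage was 0.495 and 2.59 in the uninjured male and female and 4.51 and 1.58 in the injured male and female, on 1, 12, 7 and 3 fragments. The groups overlapped, and the mean of 2.29 lay at percentile 39.8. The locus, the longest of the 10 at 230 kb, held 0.371, 0.317, 0.382 and 0.404. All 4 libraries were under their own mean there, and the mean of 0.369 lay at percentile 13.5, the lowest of the 10 loci. Among the 10 loci, those of Col11a1 and Col11a2 thus had the lowest and the highest mean.

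Collagen IX sits on the surface of collagen II fibrils and is built from 3 chains with a gene each. Col9a3 (α3 chain) had start-site coverage of 6.63 and 8.71 in the uninjured male and female and 10.5 and 4.26 in the injured male and female. The injured libraries were the highest and the lowest, so the groups overlapped, and the mean of 7.51 lay at percentile 70.7. Its locus held 2.64, 3.81, 3.28 and 2.605, with a mean of 3.08 at percentile 78.4. As at Col11a2, the upstream flank, which holds other starts, had the higher mean, at 5.15 against 0.879 downstream.

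Col9a2 (α2 chain) had start-site coverage of 2.705 and 5.90 in the uninjured male and female and 5.23 and 4.49 in the injured male and female. Both injured libraries lay between the uninjured ones, and the mean of 4.58 lay at percentile 55.4. Its locus held 1.69, 2.31, 2.02 and 1.55, with a mean of 1.89 at percentile 59.7. No start of another gene lies in this locus, and its exons (3.47) and introns (2.93) had higher means than its upstream (1.63) and downstream (1.25) flanks.

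Col9a1 (α1 chain) had start-site coverage of 1.66 and 0.630 in the uninjured male and female and 0.247 and 0 in the injured male and female, on 6 fragments in all. Both injured libraries lay below both uninjured ones. At the depth of the injured female, 0 fragments allow a coverage of up to 1.71, above both uninjured values, so a difference between groups was not detectable there. The mean of 0.634 lay at percentile 19.9, and the gene had too few fragments for the test between groups. The locus held 0.867, 0.522, 0.697 and 0.707, with a mean of 0.698 at percentile 25.8. The window around another annotated start of Col9a1, 17577 bp downstream, had a mean of 1.80. The 3 chains of collagen IX, which are made together in cartilage, thus ran from 0.634 to 7.51 at their start sites in these libraries.

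The matrilins are adaptor proteins that link collagen fibrils to other parts of the cartilage matrix. Matn1 (matrilin-1) had start-site coverage of 2.32 and 1.78 in the uninjured male and female and 4.70 and 7.996 in the injured male and female, on 4, 12, 12 and 10 fragments. Both injured libraries lay above both uninjured ones, at means of 6.35 and 2.05, and the counting intervals overlapped in the males (0.632 to 5.94 uninjured and 2.43 to 8.21 injured) and not in the females (0.917 to 3.10 and 3.83 to 14.7). Its locus held 1.88, 1.59, 2.19 and 1.94, where the injured libraries were again the higher ones by a small margin, and the mean of 1.897 lay at percentile 59.8. In the control libraries the start-site window of Matn1 held 2 fragments, both in the uninjured female.

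Matn3 (matrilin-3) had start-site coverage of 1.11 and 1.54 in the uninjured male and female and 0.746 and 0 in the injured male and female, on 11 fragments in all. The injured libraries were the lower ones, but the limit for 0 fragments in the injured female, 1.71, lay above both uninjured values. The mean of 0.850 lay at percentile 23.9. The locus held 1.22, 0.846, 1.16 and 1.07, with overlap, and its mean of 1.07 lay at percentile 37.8.

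Comp encodes cartilage oligomeric matrix protein, which binds collagens II and IX. Its start-site coverage was 3.53 and 4.26 in the uninjured male and female and 5.69 and 2.75 in the injured male and female. The injured libraries were again the highest and the lowest, and the mean of 4.06 lay at percentile 52.1. The locus held 3.43, 3.98, 3.19 and 3.59, with overlap, and its mean of 3.55 lay at percentile 83.2. Exons had a mean of 4.48, introns 4.14 and the downstream flank 4.02, and the upstream flank was lower at 2.77.

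Hapln1 encodes the link protein that fixes aggrecan to hyaluronan, and it is also made by neurons with perineuronal nets. Its start-site coverage was 0.639 and 2.05 in the uninjured male and female and 1.33 and 3.83 in the injured male and female, on 1, 12, 2 and 7 fragments. The female libraries were the higher ones in both groups, the groups overlapped, and the mean of 1.96 lay at percentile 37.1. The locus held 0.6004, 0.499, 0.475 and 0.559, all under 1, with a mean of 0.533 at percentile 20.3.

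Whether coverage changed with injury was asked of each gene with limma across all coding genes with at least 10 fragments in the SOX9 libraries. Since the nuclei are a bulk mixture, fewer nuclei with SOX9 at a site and less binding per nucleus cannot be told apart. At start sites 16643 genes were tested and 0 of 9 cartilage genes passed the adjusted threshold of 0.05 in either direction, against 0.00601% of coding genes called higher and 0% called lower. The gene called there was Gm11361, named because it was the sole call, at a log2 change of 3.61 (adjusted p 0.00794), and leaving out any 1 of the 4 libraries removed the call. In loci 21925 genes were tested and 0 of 10 passed, against 0.0639% of coding genes called higher (14 genes) and 0% called lower. The count of 14 rested on single libraries: it was 129 and 135 without the uninjured male or female and 2 and 3 without the injured male or female, and 0 with trimmed mean scaling.

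At an unadjusted p under 0.05, limma had 1 of the 9 start sites higher, against 0.871% of coding genes, and 0 lower, against 0.961%. For loci it had 0 of 10 higher, against 2.02%, and 0 lower, against 0.93%. The start site was that of Matn1, with a log2 change of 1.39 (SE 0.68, limma p 0.0397), which did not survive adjustment (adjusted p 1.00). Its unadjusted limma p was 0.0851 with trimmed mean scaling and 0.109 with SOX9 libraries thinned to the total coverage of the shallowest. In the fit of all 8 libraries that limma p was 0.561 (SE 2.26). The next largest differences at start sites were fitted for Matn3, at a log2 change of −1.20 (SE 0.97), and Col11a1, at 0.88 (SE 0.76). Leaving out each library gave −0.54 to −1.86 for Matn3 and 0.062 to 1.70 for Col11a1. Col9a1, with too few fragments for the main test, had a log2 change of −1.35 (SE 0.47, limma p 0.0504) without the fragment filter. Col9a1 did not pass after adjustment. The unadjusted limma p of Matn3, 0.214, was 0.0446 with thinned libraries, at a log2 change of −2.22, and 0.0394 in the fit of all 8 libraries, and neither passed after adjustment (adjusted p 1.00 and 0.801, within a range of 0.684 to 1.00 over its alternatives). In loci the fitted log2 changes ran from −0.19 (Col11a2, SE 0.36) to 0.20 (Matn1, SE 0.18), and the quartiles of all coding genes were −0.13 and 0.09. None of these differences passed the adjusted threshold by the test used, which does not show that coverage was the same. In the main fits the SE of a gene was set by its level, from the spread across all coding genes. The spread between the gene's own libraries of a group did not enter. Without the trend, all 9 tested start sites had the same SE of 0.699.

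Libraries of the groups did not overlap at 1 of 9 start sites with higher injured values (Matn1), against 7.38% of coding genes, and at 1 with lower ones (Matn3), against 14.9%. In gene bodies 2 of 10 were higher without overlap (Comp and Matn1), against 13.4%, and 0 lower, against 15.4%. In flanks 3 were higher (Col11a1, Matn3 and Hapln1), against 12.4%, and 1 lower (Col11a2), against 12.8%. In loci 2 were higher (Col11a1 and Matn1), against 12.3%, and 0 lower, against 11.8%. These counts of 0 to 3 genes were not tested against the shares, and nothing is read from them about the cartilage genes. The male and female differences had opposite signs at many genes: at start sites 5 of 9 were higher in the injured male and lower in the injured female, against 58.1% of coding genes, and 1 was the opposite, against 7.51%. In loci these counts were 4 of 10, against 38.8%, and 3 of 10, against 27.5%. With libraries thinned to the shallowest, 3 of 9 start sites were higher without overlap, against 9.25% of coding genes, and 1 of 10 loci, against 12.6%. With trimmed mean scaling 1 of 10 loci was lower, against 8.04%.

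Set against the controls, the 10 loci together held 7850 SOX9 fragments and 55 control fragments. The pooled coverage was 1.75 times the mean in SOX9 libraries and 1.36 in controls, and the share of all fragments was 1.36 times as large in SOX9 libraries (exact interval 1.04 to 1.80). For all coding loci the same ratio of shares was 1.01. The lower bound for the 10 loci fell under 1 without the injured male control (1.19, 0.863 to 1.68) and without the uninjured female SOX9 library (1.28, 0.978 to 1.70). With the isolated control fragments that were not shared with a SOX9 library, of which 10 lay in the loci, the ratio was 0.878 (0.477 to 1.83). Single genes ran from 0.711 at Matn1 (0.324 to 1.95) to 3.83 at Col9a1 (0.683 to 151), and the intervals of all 10 held 1. At start sites 36 of the 40 pairs of a gene and a control library were empty, and pooled coverage was 5.26 in SOX9 libraries and 6.26 in controls, the latter on 5 fragments. The ratio of fragment shares at start sites was 1.13 (0.480 to 3.48). The ratios of single genes include the control fragments shared with SOX9 libraries, so they give no independent background. With these controls and at this depth, coverage above the control could not be assessed at single cartilage genes.

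To find where in the loci the coverage lay, the genome was divided into 1-kb tiles, and a tile was called high with at least 5 times the library mean in each of the 4 SOX9 libraries. The 10 loci held 24 high tiles of 877 (2.74%), against 0.851% of all tiles in the genome and 1.52% of tiles in coding loci. When tiles are counted once for every coding locus that holds them, as in crowded regions, the share was 2.45%. At least 1 high tile lay in 6 of 10 loci, against 52.3% of coding loci. With libraries thinned to the shallowest, 18 tiles (2.05%, against 1.40% in coding loci) in 4 of 10 loci (against 51.1%) were high. At 10 times the mean, 8 tiles (0.912%, against 0.425%) were high, all of them in 1 of 10 loci (against 31.0%). Col11a2 held 13 of the 24, Col9a3 held 4, Col2a1 held 3, Comp held 2, and Col9a2 and Matn1 held 1 each, while Col9a1, Col11a1, Matn3 and Hapln1 held 0. Without the locus of Col11a2, 11 of 809 tiles (1.36%) were high, a division made after its values were seen. The cartilage share was above the share of coding-locus tiles counted once in each of these settings with all 10 loci, and below it without Col11a2. With tiles counted once for every locus, the coding share was 2.27% with thinned libraries, above the cartilage share. It was 2.45% in the main setting and 0.721% at 10 times the mean, both below the cartilage share with all 10 loci. These differences were not tested.

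The 3 high tiles of Col2a1 all lay inside introns. The tile at chr15:98002001-98003000, in intron 1 and 1695 bp from the start, had 5.07 and 14.04 in the uninjured male and female and 12.5 and 5.49 in the injured male and female. Neighbouring tiles at chr15:97992001-97993000 and chr15:97993001-97994000, both in intron 16, had means of 8.79 and 7.57. The lowest library values of the 3 tiles were 5.07, 6.16 and 5.16, not far above the threshold of 5, and the uninjured male held 4 to 6 fragments in each.

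At Col11a2, 6 of the 13 high tiles lay within 1 kb of a start of another gene. The highest, chr17:34031001-34032000, had 31.8, 51.4, 41.6 and 33.9 in the 4 libraries and covers the starts of Slc39a7, Rxrb and the transcript Gm20427. Others lay at Ring1, H2-Ke6, Mir219a-1, Mir219c and Gm26940. The tile over its own start, chr17:34039001-34040000, had a mean of 18.4, and the neighbouring tile upstream, chr17:34038001-34039000, had 20.4. Inside the gene, chr17:34041001-34042000 in intron 1 had 14.1 and chr17:34042001-34043000 had 8.004.

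At Col9a3 the tile at chr2:180598001-180599000, which holds exons 1 and 2, had 6.75 and 9.26 in the uninjured male and female and 11.1 and 6.45 in the injured male and female. Its 3 other high tiles lay upstream, and 1 of them, with a mean of 10.3, was within 1 kb of the start of Mrgbp. Col9a2 had its high tile at chr4:121041001-121042000, across exon 2 and intron 2, with 9.32, 13.6, 9.86 and 5.45. Comp had high tiles at chr8:70379001-70380000, toward the end of the gene (mean 7.96), and at chr8:70383001-70384000, in the downstream flank (mean 9.53). Matn1 had its high tile at chr4:130935001-130936000, 8385 bp upstream of its start, with 10.2, 5.996, 11.8 and 5.55. Among the 4 loci without a high tile, the highest tile means were 6.79 (Matn3), 4.12 (Hapln1), 3.83 (Col11a1) and 2.93 (Col9a1).

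**Figure D2:**
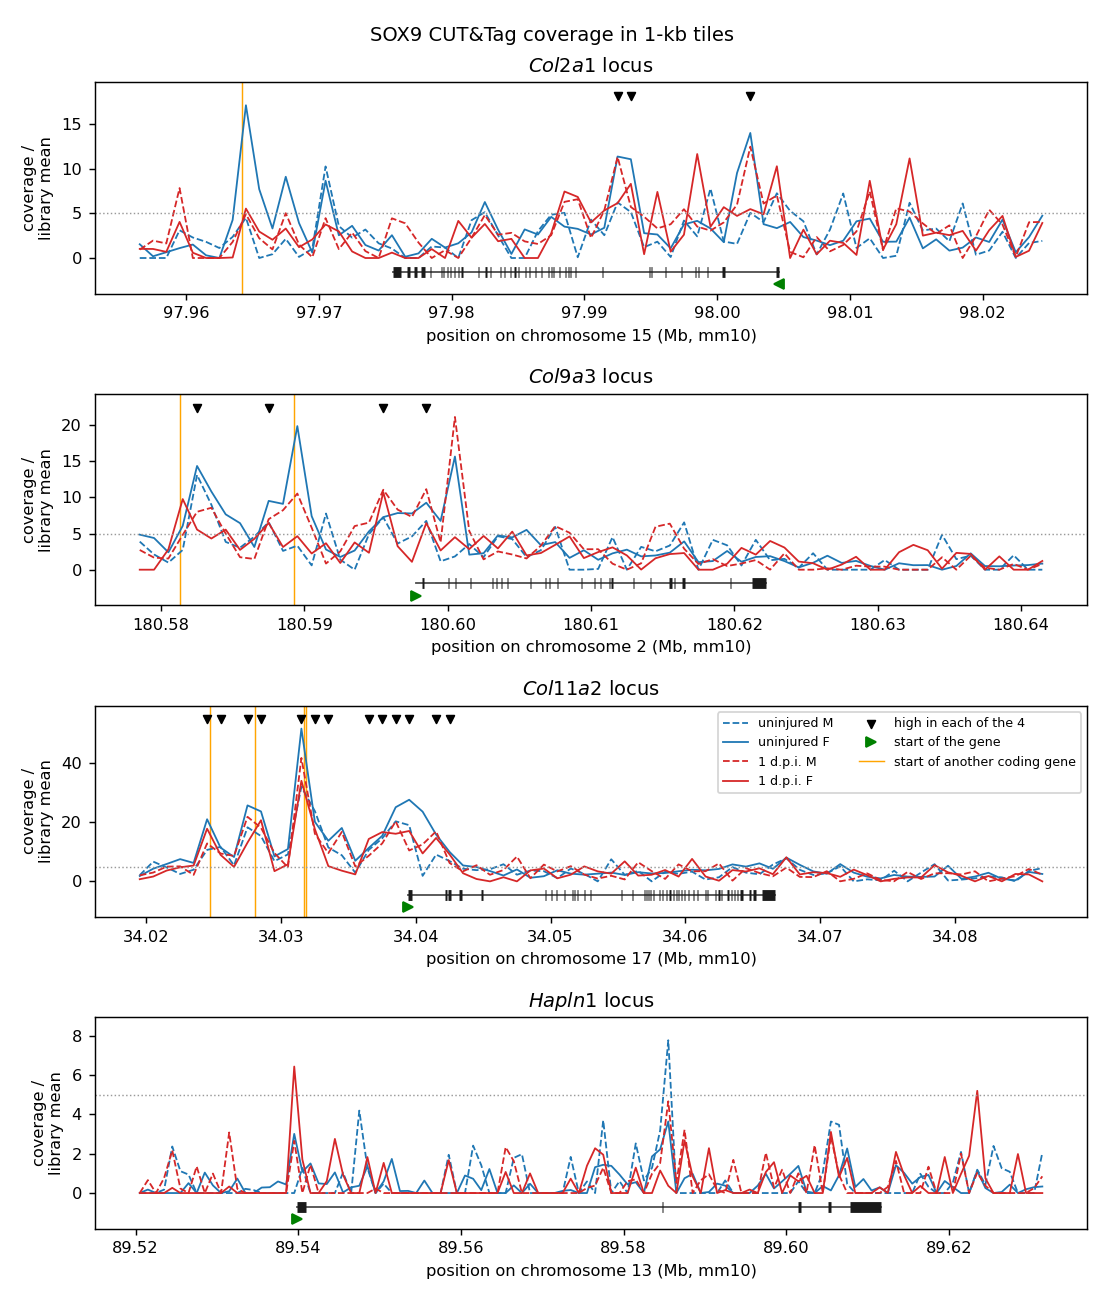
Coverage over the library mean in 1-kb tiles along the loci of Col2a1, Col9a3, Col11a2 and Hapln1 in mm10, with 1 line for each of the 4 SOX9 libraries, a vertical scale of its own in each panel and a dotted line at 5. Triangles mark tiles of at least 5 in every SOX9 library and orange marks show starts of other coding genes; the tallest tile of Col11a2, with a mean of 39.7, lies upstream of the gene at such starts, and Hapln1 has 0 high tiles.

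The sequences of the tiles were searched on both strands for letters that SOX proteins are known to recognise. ACAATGG was in 0 of the 24 high tiles of the cartilage loci, in 13.5% of all tiles of these loci, in 10.99% of the high tiles of the genome and in 16.1% of all its tiles. ACAAAGG was in 6 of 24 (25%), against 20.8%, 18.6% and 20.0% in the same order. A facing pair, ACAANG and then CNTTGT after 4 bases, was in 2 of 24 (8.33%), against 0.342% of the tiles of the loci, 0.332% of the high tiles and 0.135% of all tiles. The counts are too small to read against these shares, and a match describes letters and is not a site of binding.

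The facing pair occurred 3 times in the 877 tiles of the loci, and the 3 stretches are shown because this arrangement is the one known from cartilage enhancers. They are read from the forward strand of the RefSeq genome GRCm38 (mm10), with the pair and its spacer in capitals; the letters searched describe the same pattern on either strand. The first lies at chr2:180598609-180598648 in intron 1 of Col9a3, the second at chr4:121047955-121047994 in intron 16 of Col9a2, and the third at chr17:34038538-34038577 upstream of Col11a2.
Col9a3: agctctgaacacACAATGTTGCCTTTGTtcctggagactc
Col9a2: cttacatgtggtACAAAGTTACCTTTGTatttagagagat
Col11a2: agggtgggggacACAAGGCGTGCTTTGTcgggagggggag
In the 1 kb centred on the pair of Col9a3, coverage was 6.75 and 9.23 in the uninjured male and female and 11.1 and 5.68 in the injured male and female. The pair of Col9a2 had 1.33, 0.337, 0 and 0.316, on 7 fragments in all. The pair of Col11a2 had 19.9, 25.7, 20.3 and 16.1. Coverage was thus high at the pairs of Col9a3 and Col11a2, both within 1 kb of the start of their gene, and low at the pair of Col9a2. Across all coding loci, tiles with the facing pair had a mean of 1.92 and tiles without it 1.48. The medians of these tiles were closer, at 0.943 and 0.863, both under the library mean.

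The single letters ACAAAGG occurred in high tiles inside Col2a1 and Col9a2, which are shown because these tiles had the highest coverage in the loci of both genes. The letters, or their reverse complement CCTTTGT, are in capitals, on the forward strand of the same genome. The stretch of Col2a1 lies at chr15:98002533-98002569 in intron 1, where an exon of a minor transcript is also annotated. Those of Col9a2 lie at chr4:121041067-121041103 and chr4:121041668-121041704 in intron 2.
Col2a1: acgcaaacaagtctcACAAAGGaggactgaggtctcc
Col9a2 (start of the tile): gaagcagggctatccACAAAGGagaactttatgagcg
Col9a2 (farther along): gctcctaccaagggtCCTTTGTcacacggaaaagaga
The reverse complement also lies inside the facing pair of Col9a3, so the 2 searches overlap there. The other 3 matches in high tiles were at Col11a2, 2 of them upstream and 1 in intron 3. In the 10 loci, tiles with ACAAAGG had a mean of 1.71 and tiles without it 1.69, and for ACAATGG the means were 1.26 and 1.76.

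Coverage at start sites moved with base composition in all coding genes. When start-site windows were ranked by their content of CpG (observed over expected) and split into deciles, the median coverage of coding genes was 0.273 in the lowest decile and 9.51 in the highest. The cartilage genes had a median CpG ratio of 0.417, against 0.474 for coding genes, and a median GC content of 56.0%, against 51.2%. Compared with coding genes of their own decile, 5 of 10 lay above the median, and their median percentile was 47.9. The highest were Col11a2 at percentile 96.1, Matn1 at 88.1 and Col9a3 at 75.9, and the lowest was Matn3 at 11.5. The part of base composition in the coverage of single genes was not tested.

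**Figure D3:**
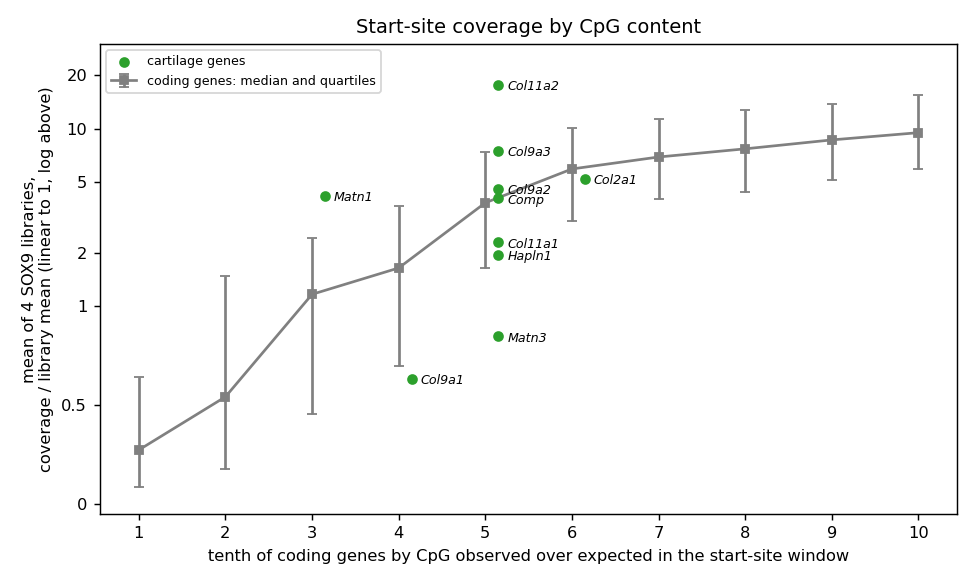
Start-site coverage over the library mean (mean of the 4 SOX9 libraries) against the decile of CpG content, with medians and quartiles of all coding genes and 1 point for each of the 10 cartilage genes. The median of coding genes is 0.273 in the lowest decile and 9.51 in the highest, and 7 of the cartilage genes lie in the fifth decile between 0.850 (Matn3) and 17.7 (Col11a2).

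Lists of other genes show the range of these values in the same libraries. The 23 other cartilage genes had medians of 2.32 at start sites and 1.19 in loci, with 7 and 10 of them above the coding median. The 3 with the highest start-site coverage were Sox9 (5.56), Wwp2 (5.44) and Matn2 (5.30). The 25 astrocyte genes, which also count Sox9, had medians of 5.62 and 2.55, with 15 and 17 above, led by Kcnj10 (22.2), Aldoc (21.9) and Glul (17.4). The 12 oligodendrocyte genes had medians of 11.9 and 5.32, with 12 of 12 above in both windows, led by Cnp (29.4), Sox10 (25.5) and Olig1 (21.5). The 18 liver and muscle genes, taken as genes of other tissues, had medians of 2.66 and 1.83, with 6 and 11 above, led by Mylpf (59.9), Pygm (9.58) and Actn3 (8.96). The medians of the 10 cartilage genes, 4.13 and 1.895, lay below those of the astrocyte and oligodendrocyte lists and above those of the other cartilage and the liver and muscle lists. Against liver and muscle genes the order in loci was not stable. The cartilage median was lower in the uninjured male (1.79 against 1.81) and injured female (1.74 against 1.98). It was higher in the uninjured female (1.95 against 1.52) and injured male (2.103 against 2.095). In flanks it was lower, at 1.65 against 1.88.

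The same order held for part of the measures only. Within deciles of CpG content the median percentiles were 27.96 for other cartilage genes, 72.0 for astrocyte genes, 92.5 for oligodendrocyte genes and 79.0 for liver and muscle genes, against 47.9 for the 10 cartilage genes. High tiles lay in 11 of 23, 18 of 25, 12 of 12 and 12 of 18 of these loci, against 6 of 10. Their shares of high tiles were 0.713%, 2.995%, 19.5% and 3.56%, against 2.74%. No test compared the lists, and the controls, whose fragments are mostly shared, give no independent background for them.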

How the data were processed

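The authors mapped CUT&Tag reads with Bowtie2 2.5.4 and removed duplicates with Picard 3.4.0; the deposited list gives coverage (signal) in whole fragments, unscaled, for all 8 libraries, and the step that wrote it is not stated. Fragments were counted as rises of coverage, and library means were taken over chromosomes 1 to 19, X and Y. Gene starts came from GENCODE M21. The test was limma 3.58.1 (R 4.3.3, trend) on log2 of coverage over the library mean plus 0.5, for the 4 SOX9 libraries, 2 against 2, with Benjamini-Hochberg adjustment across all coding genes with at least 10 fragments; an exact permutation of 2 against 2 cannot go below p = 0.333. The limma test was also run on simulated data, for which no outcome is given here, so nothing is read from that run. Python 3.11.15, numpy 2.4.6, scipy 1.17.1, pandas 2.3.3, pysam 0.24.0, samtools 1.23.1 and matplotlib 3.10.9 were used. The 10 genes and the lists of other cartilage, astrocyte, oligodendrocyte, and liver and muscle genes were chosen with earlier results of these data known, so no list was tested. All 10 genes are named, at most 3 genes of each other list (those with the highest start-site coverage), and neighbours whose start lies in a flank within 1 kb of a high tile. Alternatives were window and flank size, transcript start, start sites of other genes left out, scaling, pseudocount, low-value filter, trend, sex as a block, all 8 libraries in the fit, thinning to the shallowest, tile threshold and leaving out each library. Chosen after seeing the data were those without Col11a2, without tiles near starts of other genes, with unshared control fragments and leaving out each library for the control ratio, the base composition and the counts without overlap. Stretches off the main chromosomes (0.318%) were left out. Thinning matched total coverage and not the number of fragments. It left 1891276 fragments in the uninjured male, 2174120 in the uninjured female, 1846985 in the injured male and 1833476 in the injured female.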

Additional observations from a re-analysis of the deposited data

Results flagged for a closer look

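Some cartilage genes moved in opposite directions in the male and the female samples at 1 d.p.i.; with 1 library per sex and group, the difference between sexes was not tested. At start sites the log2 change was −0.40 in the male and 0.53 in the female at Col2a1, and the reverse order held at 5 genes. These were Col9a2 (0.84 in the male, −0.36 in the female), Col9a3 (0.62, −0.95), Col11a1 (2.33, −0.57), Col11a2 (0.18, −0.83) and Comp (0.62, −0.55). In loci, Col2a1 (0.30 in the male, −0.18 in the female), Col9a2 (0.20, −0.46), Col9a3 (0.27, −0.47) and Col11a2 (0.079, −0.46) were higher in the male and lower in the female. Col9a1 (−0.19, 0.24), Matn3 (−0.048, 0.22) and Hapln1 (−0.17, 0.083) were lower in the male and higher in the female. The same was common across the genome: higher in the male and lower in the female held for 58.1% of coding genes at start sites, against 5 of 9 cartilage genes, and for 38.8% in loci, against 4 of 10. The opposite held for 7.51% at start sites, against 1 of 9, and for 27.5% in loci, against 3 of 10. The uninjured female library had 3.82 times the fragments of the uninjured male one. The part of depth in these directions was not tested.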

How the results depend on the processing

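Of 686 values under alternatives, 611 were labelled as kept in direction or size, 53 as moved and 22 as changed in sign. A level was labelled as kept if it moved by less than 1 SD of its values over the 4 SOX9 libraries. For a single gene, leaving out 1 library cannot move the mean that far, so those labels were fixed in advance. The 611 is therefore no measure of stability. The sign changes were among 238 fitted log2 changes of cartilage genes, and 0 of the 238 passed the threshold under any alternative. The cause was not tested for any of them. With thinned libraries Col9a3 was at 0.23 at its start site and Comp at 0.027 in its locus, and with trimmed mean scaling Comp was at −0.010 at its start site. Leaving out each library gave start-site ranges of −0.23 to 0.36 (Col2a1), −0.26 to 0.74 (Col9a2), −0.77 to 0.44 (Col9a3), −0.89 to 0.24 (Col11a2) and −0.43 to 0.50 (Comp). For loci it gave −0.12 to 0.24 (Col2a1), −0.19 to 0.23 (Col9a1), −0.31 to 0.052 (Col9a2), −0.33 to 0.13 (Col9a3), −0.40 to 0.011 (Col11a2), −0.092 to 0.26 (Matn3) and −0.12 to 0.024 (Hapln1). Without Col11a2 the median was 1.99 in bodies and 1.44 in flanks, the latter just below the coding median of 1.45, and 11 high tiles remained in the loci. With flanks of 10 kb it was 1.999 in flanks and 2.24 in loci. Genes called higher at start sites by limma numbered 0 with trimmed mean scaling, without the filter, in the fit of 8 libraries and without each library (0 to 0). In loci 0 were called higher with trimmed mean scaling, without the trend and in the fit of 8 libraries, 7 with thinned libraries and 2 to 135 without each library, where 0 to 114 were called lower; a lone library is then assumed to vary like the other group. With sex as a replicate block, 3 loci and 1 start site were called higher; deviations of the male libraries correlated at r = −0.08 (start sites, 16643 genes) and −0.38 (loci, 21925 genes) between conditions, and the animals are not pairs. With unshared control fragments the control ratio was 0.878, on the other side of 1. The start-site median lay below the coding median with windows of 500 bp (3.93 against 4.53) and without the injured female (3.71 against 3.80). At 3 and 10 times the mean, 48 and 8 tiles were high in the loci and 54405 and 6606 in the genome. Depth limits start sites most, with 6 to 245 fragments over the 4 SOX9 libraries.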
